A study of Homo sapiens with 6 samples.

Results

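The ephrins, Slits and netrins are guidance cues, and their receptors sit in the membrane of the cells that read them. The members were chosen by symbol among the protein-coding genes of the deposited table: the Eph receptors, the ephrins, the Slits and their Robo receptors, the netrins and netrin-G genes, the UNC5 receptors, *DCC* and *NEO1*. This gave 41 of the 60663 genes listed. After a filter on low counts, 23 of the 41 were tested among 16920 genes. The other 18 are accounted for by their counts.

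The study asked what *LTBP2*, a secreted protein of the extracellular matrix and a marker of a class of cancer-associated fibroblasts, does in fibroblasts. CCD18Co cells, an established line of fibroblasts from normal human colon, were transfected with a commercial pool of siRNAs against *LTBP2* (siLTBP2) or with a non-targeting pool (siNT), each for 6 h by lipofection. RNA was taken at 48 h, and stranded libraries were made after removal of ribosomal RNA. There were 3 libraries of each group, numbered 1 to 3, so every control library carries a transfection as well, and 1 line and 1 siRNA pool stand for the knockdown.

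Eph receptors are receptor tyrosine kinases bound by ephrins on a neighbouring cell, and the signal can run into both cells. A-type ephrins are held in the membrane by a lipid anchor and B-type ephrins span it. Slits are large secreted proteins read by Robo receptors, and netrins are laminin-like secreted proteins read by *DCC*, neogenin (*NEO1*) and UNC5 receptors. These systems are best known from growing axons, and they also act in cell repulsion, migration and vessel growth. EphB receptors order the cells of the intestinal crypt.

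Each library held between 44663424 and 53576899 reads assigned to genes. *LTBP2* itself lay between 21.2 and 25.0 CPM (counts scaled to the library total and edgeR's TMM factor) in siNT and between 6.00 and 8.61 CPM in siLTBP2, which left 30.4% of the siNT level by group means. On the log2 scale siLTBP2 differed from siNT by -1.72 (SE 0.15, adjusted p = 6.6e-05, quasi-likelihood test of edgeR). All 10 fibroblast markers listed were present, with a summed level of 9959 to 13220 CPM in siNT and of 10100 to 14430 CPM in siLTBP2, while *EPCAM*, *CDH1* and *KRT20* of the epithelial list stayed at or under 0.0405 CPM. The epithelial list summed to between 41.7 and 56.6 CPM in siNT and between 87.3 and 100.7 CPM in siLTBP2, most of it *KRT18*. The smooth muscle list summed to between 293.7 and 335.1 CPM in siNT and between 469.9 and 485.4 CPM in siLTBP2. *MYH11*, *DES* and *CNN1* stayed at or under 0.115 CPM. Most of the sum was *SMTN*, with means of 194.3 and 335 CPM (log2 fold change 0.79, adjusted p = 0.00024 from edgeR). *ACTG2* had means of 41.2 and 61.1 CPM, *ACTA2* of 64.2 and 75.5 CPM, and *SYNPO2* of 11.1 and 5.51 CPM. Immune and glial lists summed to at most 5.43 CPM in any library. The part of these markers in the results below was not tested. The labels do not say that the libraries of a group came from separate cultures, so the p-values measure the spread between these libraries, which may be technical.

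The thresholds of the study were a fold change over 2 at an adjusted p under 0.01. Of the 23 members tested, 2 passed them in the quasi-likelihood test and are called here: *ROBO4* was higher and *ROBO2* was lower in siLTBP2. That is 8.70% of the members tested, where 2.57% of all genes tested were called, 1.29% higher and 1.27% lower. The study itself used the likelihood ratio test, in which 3 members passed these thresholds: *ROBO4*, *ROBO2* and *NTN5*. The members were chosen with earlier results of these data known, so the shares are a description only. With an adjusted p below 0.05 and a change of any size, 6 members differed (26.1%). *ROBO4*, *EPHA2* and *SLIT2* were higher, and *ROBO2*, *EPHA4* and *NTN5* were lower. Among all genes tested this rule took 19.3%, with 9.76% higher and 9.51% lower. In 8 members (34.8%) the 3 libraries of one group lay entirely above those of the other, beside 37.0% of all genes. These 8 are the 6 above with *ROBO3* and *EFNB3*. In bulk RNA, a change in the number of cells that express a gene and a change in RNA per cell cannot be told apart. The median log2 fold change of the 23 members was 0.03 and that of all genes was -0.01. The median and the share without overlap were thus near those of all genes, and the members that differed did so in opposite directions within the Robo and EphA receptors.

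**Figure D1:**
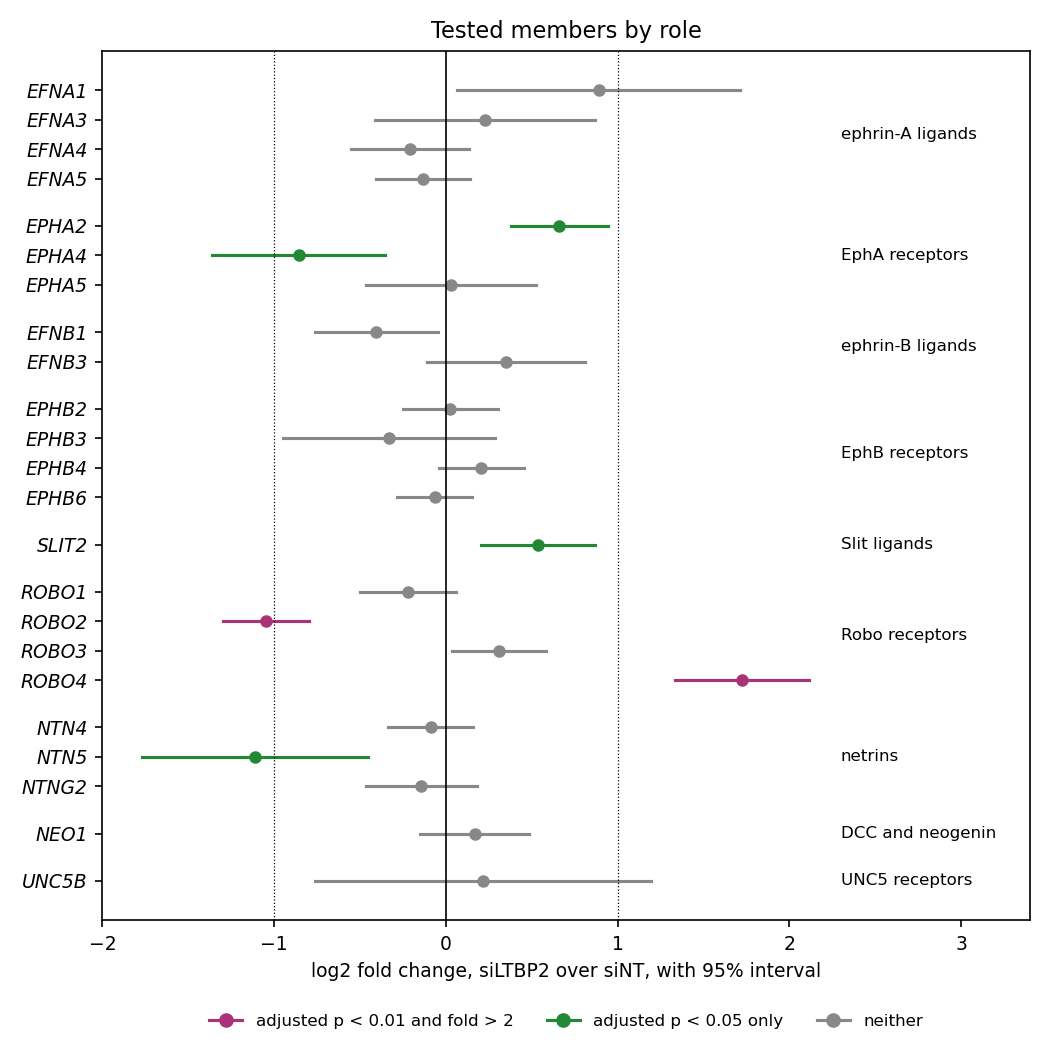
Log2 fold change of siLTBP2 over siNT (horizontal axis) for the 23 tested members, grouped by role, with 95% intervals and with dotted lines at a fold change of 2. *ROBO4* at 1.73 and *ROBO2* at -1.04 are called, 4 more members pass an adjusted p of 0.05, and the EphB receptors, both ephrin groups, *NEO1* and *UNC5B* hold no member that does.

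Robo receptors. *ROBO2* (ENSG00000185008, plus strand, chr3:75906695-77649964 of GRCh38) is a receptor of the Slits. It stood at 28.5, 25.1 and 26.0 CPM in siNT replicates 1 to 3 and at 13.4, 13.9 and 11.3 CPM in siLTBP2. All siLTBP2 libraries lay under all siNT libraries, and the groups were far apart for their spread. The mean fell from 26.5 ± 1.75 to 12.9 ± 1.39 CPM (SD, n = 3). The log2 fold change was -1.04 (95% interval -1.29 to -0.79, adjusted p = 0.00021 from edgeR). This lies close to a fold change of 2: without siNT replicate 1 the value was -0.996 and without siLTBP2 replicate 3 it was -0.955, both under that fold, with adjusted p-values of 0.0011 and 0.00013. The processed pseudogene *CAP1P1* lies within *ROBO2* on the same strand, and its 425 counts over the 6 libraries had a log2 fold change of -0.92 (adjusted p = 0.04 from edgeR).

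*ROBO4* (ENSG00000154133, minus strand, chr11:124883691-124898500) is known as the Robo receptor of endothelial cells, where it steadies vessel walls. Its counts were 91, 76 and 76 in siNT and 247, 255 and 273 in siLTBP2. In CPM these were 1.97, 1.54 and 1.41 against 5.67, 5.39 and 5.18. The siLTBP2 libraries lay close together and well above the siNT libraries, with no overlap. The mean rose from 1.64 ± 0.292 to 5.41 ± 0.244 CPM (SD, n = 3), a log2 fold change of 1.73. Its 95% interval was 1.34 to 2.11 and its adjusted p was 0.00015 in edgeR. Leaving out any library gave a value between 1.63 and 1.87, and the call was kept each time.

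Beside *ROBO4*, 7 of the 10 endothelial markers listed did not exceed 0.4 CPM in any library, among them *PECAM1* (at most 0.254 CPM), *CDH5* (at most 0.0380 CPM) and *KDR* (at most 0.0216 CPM). The list summed to between 69.0 and 84.1 CPM in siNT and between 64.0 and 78.9 CPM in siLTBP2. Most of that sum was *TEK*, which ranged from 59.1 to 81.5 CPM. *TIE1*, an endothelial receptor kinase, moved with *ROBO4*: it stood at 0.497, 1.26 and 1.48 CPM in siNT and at 3.58, 5.54 and 4.06 CPM in siLTBP2. Its log2 fold change was 2.01 (adjusted p = 0.0020 from edgeR), while that of *VWF* was -0.71 (adjusted p = 0.065). The part of endothelial RNA in the level of *ROBO4* was not tested.

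*ROBO1* and *ROBO3* did not pass the test, which took no account of replicate number. With the replicate number as a block, their adjusted p in edgeR was 0.016 and 0.017. *ROBO1*, the main receptor of *SLIT2* in many tissues and the Robo gene of highest level here, stood at 120.0, 94.6 and 92.5 CPM in siNT and at 99.5, 88.9 and 75.0 CPM in siLTBP2. The groups overlapped, and the log2 fold change was -0.22 (95% interval -0.50 to 0.06, adjusted p = 0.26 from edgeR). *ROBO3*, a divergent receptor known from axons that cross the midline, had 9.15, 10.8 and 11.6 CPM against 12.6, 13.9 and 12.5 CPM. These groups did not overlap, yet the log2 fold change of 0.31 (95% interval 0.03 to 0.58) had an adjusted p of 0.11 in edgeR.

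The 4 Robo genes form neighbouring pairs. *ROBO3* and *ROBO4* end towards each other on opposite strands of chromosome 11 with 2219 bases between them, and *ROBO2* and *ROBO1* do so on chromosome 3 with 947.3 kb between them. Within each library the log2 ratio of *ROBO4* to *ROBO3* in CPM was -2.69 ± 0.42 in siNT and -1.26 ± 0.11 in siLTBP2 (SD, n = 3). That of *ROBO2* to *ROBO1* was -1.94 ± 0.13 and -2.77 ± 0.11. These pairs, and those given below, were picked after their values were seen. For each, the exact two-sided permutation test gave p = 0.1, the smallest that 3 against 3 allows.

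Levels of different genes were compared per kb of exon. On that scale *ROBO1* held 73.3% ± 2.98 of the Robo signal in siNT and 69.6% ± 2.37 in siLTBP2 (SD, n = 3). *ROBO2* went from 12.7% ± 0.597 to 6.78% ± 0.354, and *ROBO4* from 1.95% ± 0.147 to 7.21% ± 0.508. *ROBO3* held 12.1% ± 2.54 and 16.5% ± 1.75. The Robo makeup of siLTBP2 cells thus stayed mostly *ROBO1*, with *ROBO2* and *ROBO4* near one another where *ROBO2* had been the higher. In siLTBP2 their levels were 0.772 CPM per kb for *ROBO2* and 0.818 CPM per kb for *ROBO4*. With the length of the canonical transcript in place of all exons, an alternative added after the data were seen, they were 1.43 and 1.26, so their order in siLTBP2 turns with the length used.

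**Figure D2:**
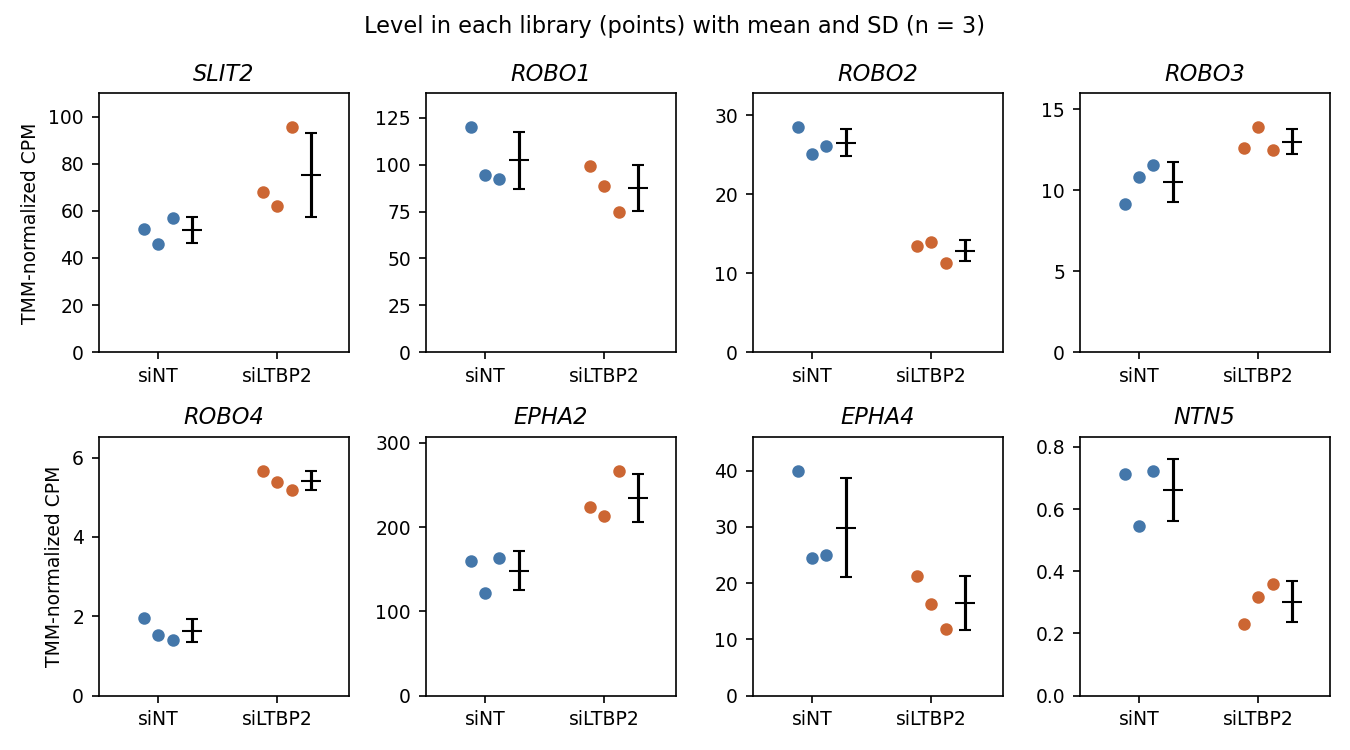
TMM-normalized CPM (vertical axis, from 0 in every panel) of the Slit and Robo genes and of *EPHA2*, *EPHA4* and *NTN5*, with a point per library and a bar for the mean and SD of the 3 libraries of each group. The groups overlap for *ROBO1* and are separate for the other genes plotted. siLTBP2 replicate 3 stands highest for *SLIT2* at 95.5 CPM, and siNT replicate 1 stands highest for *EPHA4* at 40.0 CPM.

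A word of 7 bases, GCACCCA, was examined in the transcripts because an earlier search of these data had picked it out: genes whose 3′ UTR held it tended to lower values in siLTBP2. An siRNA guide is known to be able to lower transcripts that pair with only a short stretch of it, mostly in 3′ UTRs. On the sense strand of canonical transcripts (GENCODE 44), 1454 of 12303 tested coding genes (11.8%) carried it in the 3′ UTR. Their median log2 fold change was -0.15, and it was 0.02 for the other genes. Among the 23 tested members only *ROBO2* carried it there, once, at base 2536 of a 3′ UTR of 3909 bases, with a log2 fold change of -1.04. The coding sequences of *NTN5*, *ROBO1* and *EPHB4* held it too, as did those of 13.9% of genes. Genes that held it in the coding sequence only had a median log2 fold change of -0.09. *EPHA4* held it in neither the 3′ UTR nor the coding sequence. The *ROBO2* site and the 4 sites of the targeted transcript are printed to show how far they match, with the word in capitals.
*ROBO2*, 3′ UTR, plus strand, chr3:77648581-77648607: gtcaatttatGCACCCAaaatatcacc
*LTBP2*, 3′ UTR, minus strand, chr14:74500045-74500071: atgggatacaGCACCCAtctacaaaga
*LTBP2*, coding sequence, minus strand, chr14:74505023-74505049: gaatgctgctGCACCCAgggcgctagc
*LTBP2*, coding sequence, minus strand, chr14:74551104-74551130: gcccccagcaGCACCCAggcctcgagg
*LTBP2*, coding sequence, minus strand, chr14:74555531-74555557: cagagagatgGCACCCAacaggcggta
The longest run that holds the word and is shared with the *ROBO2* site was 8 bases for the coding sites that start at 74505023 and 74555531 and 7 bases for the other pair of sites. The sequences of the siRNAs were not used here, and the part of the word in the level of *ROBO2* was not tested.

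Slit ligands. *SLIT2* (ENSG00000145147, plus strand, chr4:20251905-20620561), the ligand of *ROBO1* and *ROBO2*, was the only Slit gene that passed the low-count filter. It stood at 52.3, 45.9 and 57.0 CPM in siNT and at 67.8, 62.0 and 95.5 CPM in siLTBP2. Every siLTBP2 library was above every siNT library, with replicate 3 well above the other two. The change was 0.54 on the log2 scale (95% interval 0.20 to 0.87, adjusted p = 0.031 from edgeR). Without siLTBP2 replicate 3 it was 0.33 (adjusted p = 0.058) and without siNT replicate 2 it was 0.46 (adjusted p = 0.12). Without siNT replicate 1 the change was still 0.54, with an adjusted p of 0.078. *SLIT1* and *SLIT3* had at most 5 counts in any library. Within each library the log2 ratio of *SLIT2* to *ROBO2* in CPM was 0.96 ± 0.15 in siNT and 2.53 ± 0.49 in siLTBP2 (SD, n = 3), with an exact permutation p of 0.1. Since every siLTBP2 library lay above the siNT libraries for *SLIT2* and below them for *ROBO2*, this p was settled beforehand.

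EphA receptors. *EPHA2* (ENSG00000142627, minus strand, chr1:16124337-16156069), a receptor found in epithelia and in many tumours, had 159.6, 122 and 164 CPM in siNT and 224, 213 and 267 CPM in siLTBP2. All siLTBP2 libraries were above all siNT libraries. The mean rose from 148 ± 23.1 to 234 ± 28.5 CPM (SD, n = 3). The log2 fold change was 0.66 (95% interval 0.38 to 0.94, adjusted p = 0.0053 from edgeR), a change below the fold of 2 that a call asks for. Without each library in turn it was 0.54 to 0.74, with an adjusted p of 0.0069 to 0.017.

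*EPHA4* (ENSG00000116106, minus strand, chr2:221418027-221574202), a receptor that binds both ephrin classes, had 40.0, 24.5 and 25.0 CPM in siNT and 21.3, 16.3 and 11.8 CPM in siLTBP2. The groups did not overlap, but siNT replicate 1 stood well above the rest and the gap between the nearest libraries was small. The change was -0.86 on the log2 scale (95% interval -1.36 to -0.35, adjusted p = 0.024 from edgeR). Without siNT replicate 1 it was -0.59 (adjusted p = 0.079), and without siLTBP2 replicate 2 it was still -0.86, with an adjusted p of 0.072. *EPHA5* had 6.70 ± 2.23 and 6.86 ± 1.24 CPM (SD, n = 3) and a log2 fold change of 0.03 (95% interval -0.46 to 0.53).

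Per kb of exon, *EPHA2* made up 88.5% ± 1.71 of the EphA signal in siNT and 95.1% ± 1.28 in siLTBP2 (SD, n = 3). *EPHA4* made up 9.74% ± 2.19 and 3.74% ± 1.31. The log2 ratio of *EPHA2* to *EPHA4* in CPM went from 2.34 ± 0.36 to 3.86 ± 0.57, with an exact permutation p of 0.1. That p was settled beforehand, since every siLTBP2 library was higher for *EPHA2* and lower for *EPHA4* than every siNT library. *EPHA3*, *EPHA6*, *EPHA7*, *EPHA8* and *EPHA10* had 0 counts in every library and *EPHA1* at most 6. A count of 0 allows up to 3 counts, or 0.0556 to 0.0688 CPM by library, and this limit covers counting error only.

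Ephrin-A ligands. *EFNA5*, the ephrin of highest level, had 67.0, 48.5 and 64.0 CPM in siNT and 58.2, 49.6 and 55.9 CPM in siLTBP2. The groups overlapped, with siNT replicates 1 and 3 above all siLTBP2 libraries and siNT replicate 2 below them, and the log2 fold change was -0.13 (95% interval -0.41 to 0.14). *EFNA4* had 8.57 ± 0.753 and 7.43 ± 1.33 CPM (SD, n = 3), and a log2 fold change of -0.21. *EFNA1*, the classical ligand of *EPHA2*, was scarce, with 21, 29 and 19 counts in siNT and 41, 57 and 24 in siLTBP2. Its groups overlapped and its log2 fold change of 0.89 had a wide 95% interval of 0.07 to 1.72 and an adjusted p of 0.13 in edgeR. *EFNA3* lay under 1 CPM with a log2 fold change of 0.23, and *EFNA2* had at most 5 counts. *EFNA5* held 58.4% and *EFNA4* 38.5% of the ephrin-A signal per kb in siNT, and 58.8% and 36.3% in siLTBP2. *EFNA3* and *EFNA4* overlap a readthrough gene that had 0 counts.

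Ephrin-B ligands. *EFNB1*, the ephrin-B of highest level, had 10.3, 8.73 and 7.59 CPM in siNT and 7.64, 6.92 and 5.52 CPM in siLTBP2. The lowest siNT library lay within the siLTBP2 range. The change was -0.40 on the log2 scale (95% interval -0.76 to -0.05, adjusted p = 0.11 from edgeR). *EFNB3* had 1.08, 1.13 and 1.04 CPM in siNT and 1.33, 1.59 and 1.23 CPM in siLTBP2, without overlap, and a log2 fold change of 0.35 (adjusted p = 0.28 from edgeR). *EFNB2*, the ligand of *EPHB4* in arteries, had at most 5 counts in any library. *EFNB1* thus held most of the ephrin-B signal per kb, 88.4% ± 1.49 in siNT and 81.9% ± 2.29 in siLTBP2 (SD, n = 3).

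EphB receptors. No EphB gene passed the test, which took no account of replicate number, although 2 of the 4 tested were among the most abundant members. With the replicate number as a block, the adjusted p in edgeR was 0.015 for *EPHB3* and 0.033 for *EPHB4*. *EPHB4*, the receptor of *EFNB2* in veins, had 193, 172 and 165 CPM in siNT and 224, 215 and 173 CPM in siLTBP2. The third siLTBP2 library lay inside the siNT range, and the log2 fold change was 0.21 (95% interval -0.04 to 0.45, adjusted p = 0.23 from edgeR). *EPHB2*, a receptor of the crypt base, had 141 ± 24.7 and 144 ± 11.01 CPM (SD, n = 3), with a log2 fold change of 0.03 (95% interval -0.25 to 0.30). *EPHB6*, which lacks kinase activity, had a log2 fold change of -0.06 (95% interval -0.28 to 0.15). The value of *EPHB3* was -0.33 (95% interval -0.95 to 0.29). *EPHB1* had at most 4 counts. *EPHB4* overlaps *SLC12A9* on the other strand, whose log2 fold change was -0.05. No source used here says whether the counting used strand.

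Netrins and their receptors. *NTN4*, a netrin of basement membranes, was the netrin of highest level, with 72.1, 72.3 and 57.9 CPM in siNT and 67.4, 66.8 and 56.1 CPM in siLTBP2. These groups overlapped, and the log2 fold change was -0.09 (95% interval -0.34 to 0.16). *NTN5* (ENSG00000142233, minus strand, chr19:48661407-48673081), a little studied netrin, had 33, 27 and 39 counts in siNT and 10, 15 and 19 in siLTBP2. In CPM these were 0.714, 0.547 and 0.723 against 0.229, 0.317 and 0.361. Every siLTBP2 library was lower, at few reads.

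The log2 fold change of *NTN5* was -1.11 (95% interval -1.77 to -0.45, adjusted p = 0.025 from edgeR). The adjusted p was above 0.05 when siNT replicate 1 (0.08) or 3 (0.075), or siLTBP2 replicate 1 (0.09) or 2 (0.074), was left out. The log2 fold change in these 4 cases stayed close to the full value, at -1.06, -1.04, -0.96 and -1.14. With all libraries, *NTN5* was called in the likelihood ratio test (adjusted p = 0.004). It was also called in edgeR with the replicate number as a block (adjusted p = 0.0092). *NTNG2*, a netrin-G held at the membrane, had 9.73 ± 0.961 and 8.82 ± 1.38 CPM (SD, n = 3), and a log2 fold change of -0.14 (95% interval -0.47 to 0.18). *NTN1*, the netrin best known from axons, had at most 5 counts, *NTN3* at most 10, and *NTNG1* had 0.

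*NEO1*, which encodes neogenin, had the highest level among *DCC*, *NEO1* and the UNC5 receptors. It had 129, 92.3 and 94.9 CPM in siNT and 137.5, 114.5 and 103 CPM in siLTBP2. The groups overlapped, and the log2 fold change was 0.17 (95% interval -0.15 to 0.48, adjusted p = 0.46 from edgeR). *DCC* had 1 count in all. Of the UNC5 receptors, which turn netrin into a repellent, *UNC5B* alone was tested, at 1.51, 0.567 and 0.445 CPM in siNT and 1.40, 0.825 and 0.702 CPM in siLTBP2. Replicate 1 was the highest in both groups, and the 95% interval of its log2 fold change of 0.22 ran from -0.76 to 1.19. *UNC5A* had 1 count at most, and *UNC5C* and *UNC5D* had 0.

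**Figure D3:**
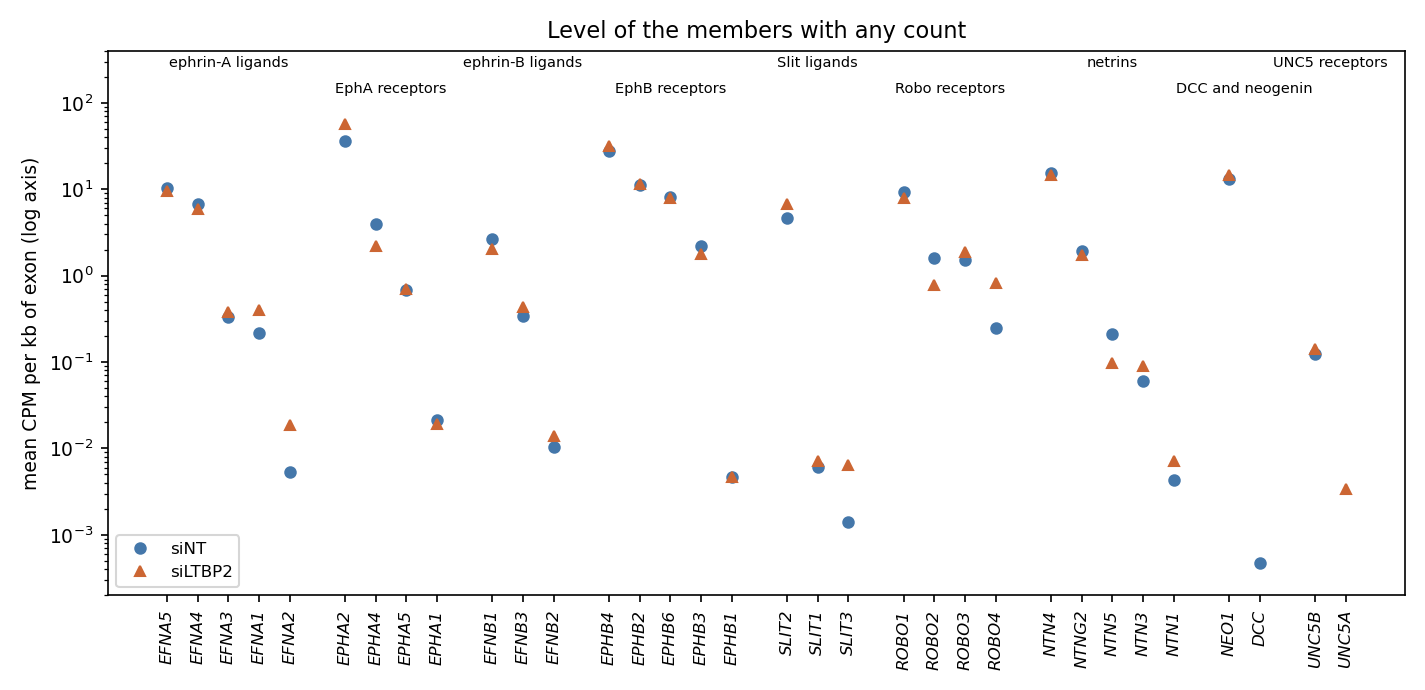
Mean level per kb of exon (vertical log axis) in siNT (circles) and siLTBP2 (triangles) for the members with any count, in order of level within each role; a group at 0 has no symbol, and the 8 members at 0 in every library are left out. In siNT the levels run from 35.8 CPM per kb for *EPHA2* down past 0.248 for *ROBO4* to members of a few reads, and the pair of symbols is widest apart among tested members for *ROBO4*.

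Set in order of level per kb in siNT, *EPHA2* (35.8 CPM per kb) and *EPHB4* (27.5) stood first, followed by *NTN4* (15.5), *NEO1* (12.9), *EPHB2* (11.3), *EFNA5* (10.4) and *ROBO1* (9.26). With canonical transcript lengths *EPHB4* (40.6) stood above *EPHA2* (37.6), so the order of these neighbours depends on the length used. *SLIT2* stood at 4.68 CPM per kb and *ROBO2* at 1.59. In siLTBP2 *EPHA2* reached 56.6 CPM per kb. Of the members from *EPHA2* down to *ROBO1* in this order, *EPHA2* alone had an adjusted p below 0.05 in edgeR. *SLIT2*, *EPHA4* (3.95 CPM per kb in siNT) and *ROBO2* passed this rule at lower levels. *ROBO4* (0.248) and *NTN5* (0.212) did so at the lowest.

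The genes that carry these signals were taken from 5 lists of adaptors, effectors, other ligands and receptors, and proteases. Together 69 of the 93 listed genes were tested. Of these, 26 (37.7%) had an adjusted p below 0.05, 17 higher and 9 lower, beside 19.3% of all genes. The lists were chosen with earlier results of these data known. This share and the counts for each list below are therefore a description only. Only *DOCK4*, 1 of the 69, was called, where 2.57% of all genes tested were. It activates Rac downstream of *EPHA2*, and had 48.5, 41.1 and 44.8 CPM in siNT and 126, 118 and 98.7 CPM in siLTBP2. All siLTBP2 libraries were above all siNT libraries by a wide gap, and siLTBP2 exceeded siNT by 1.35 on the log2 scale (SE 0.11, adjusted p = 4.8e-05 in edgeR).

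Of the Eph and ephrin effectors, 21 of 28 were tested, 5 were higher and 4 lower at an adjusted p below 0.05, and the median log2 fold change was -0.08. The genes named from here on were chosen after their values were seen. Besides *DOCK4*, the tyrosine kinase *ABL2* rose (0.92 on the log2 scale, adjusted p = 0.0020 from edgeR). So did *SDCBP* (0.66, adjusted p = 0.0012), *FYN* (0.51, adjusted p = 0.0045) and *YES1* (0.29, adjusted p = 0.041). The genes that fell were *PICK1* (-0.94, adjusted p = 0.0016) and *ANKS1B* (-0.92, adjusted p = 0.0019), with the adaptor *NCK1* (-0.67, adjusted p = 0.00047) and the kinase *SRC* (-0.53, adjusted p = 0.0047). All 20 Slit and Robo effectors were tested, 6 were higher and 3 lower, with a median of 0.08. Syndecans, heparan sulfate proteoglycans of the kind that help Slit bind Robo, moved in opposite directions: *SDC1* rose from 80.7 to 160.1 mean CPM (0.99, adjusted p = 0.00041 from edgeR), and *SDC3* (-0.66, adjusted p = 0.011) and *SDC2* (-0.43, adjusted p = 0.0075) fell. The kinase *PAK1*, which acts below Rac, rose by 0.62 (adjusted p = 0.00079).

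Of the netrin effectors 14 of 17 were tested, 3 were higher and 1 lower, with a median of -0.03. Of the 4 that passed, *PPP2R1B*, a scaffold subunit of the phosphatase PP2A, had the largest change, 0.96 (adjusted p = 7.2e-05 from edgeR). *TRIO* (-0.09) and *DOCK1* (-0.03), exchange factors below netrin receptors, did not pass. Of 20 other ligands and receptors 7 were tested, 1 was higher and 1 lower, with a median of -0.11. *MCAM*, reported as a netrin receptor, was higher (0.67, adjusted p = 0.033 from edgeR), and *ADGRL1*, a latrophilin, was lower (-0.79, adjusted p = 0.039). This list holds *FBLN5* and *SLITRK1*, which are not established guidance cues. *RGMB*, of the family that binds neogenin, had 190.2 ± 22.8 CPM in siNT against 165 ± 29.3 CPM in siLTBP2 (SD, n = 3).

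Of 8 genes for proteases that shed or cleave ephrins and Robo, with their cofactors, 7 were tested, 2 were higher and none lower, with a median of 0.16. The sheddase *ADAM17* (0.71, adjusted p = 0.00034 from edgeR) and the membrane matrix metalloproteinase *MMP14* (0.83, adjusted p = 0.0032), which can cut *EPHA2*, were higher. *ADAM10*, the sheddase of ephrins, had a log2 fold change of -0.27 (95% interval -0.54 to 0.00, adjusted p = 0.16).

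**Figure D4:**
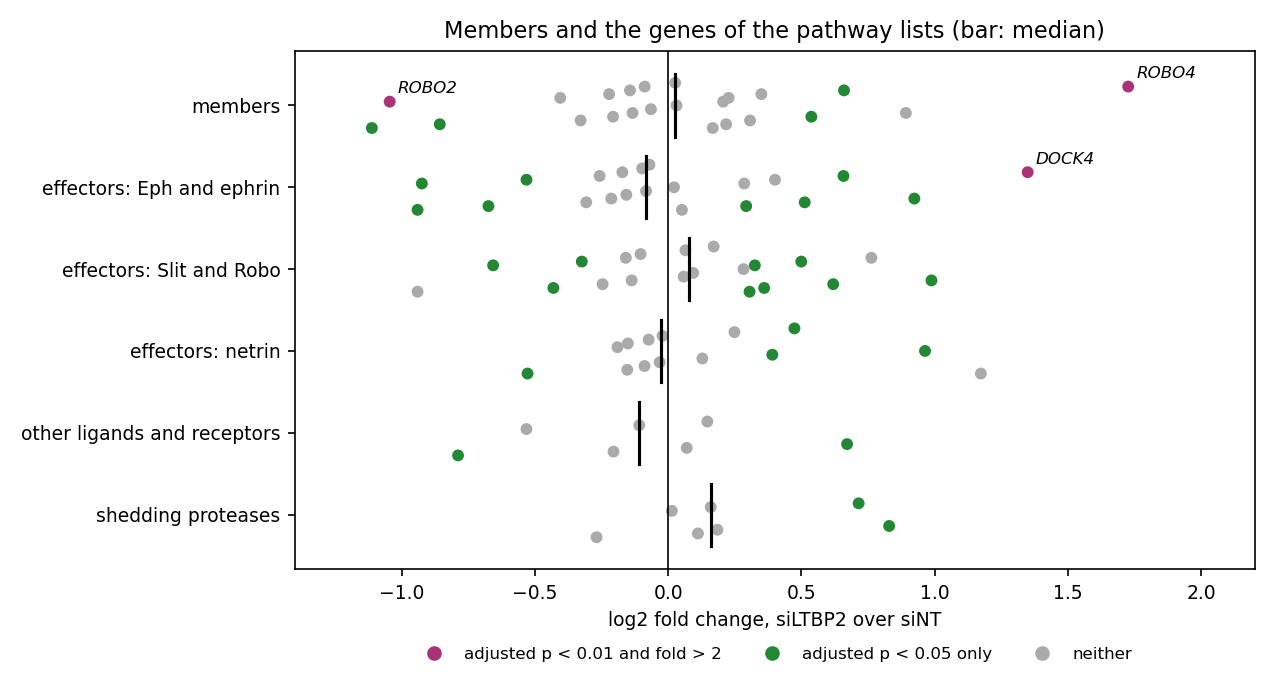
Log2 fold change of siLTBP2 over siNT (horizontal axis) for the 23 tested members and the 69 tested genes of the pathway lists, a point per gene with a black bar at each median. The medians lie between -0.11 and 0.16, and *ROBO4*, *ROBO2* and *DOCK4* are the genes past an adjusted p of 0.01 and a fold change of 2.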

How the data were processed

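Counts were analysed for 6 libraries of CCD18Co. The counts deposited by the authors are whole reads per gene, without normalization, made by HTSeq-count from paired reads that STAR had placed on GRCh38 (STAR 2.7.1a and HTSeq 0.11.2 in the submitters' processing notes). Neither the annotation release nor the strand setting is given in the sources used here. The members and the gene lists were chosen with earlier results of these data known. In R 4.3.3, genes were filtered with filterByExpr of edgeR 4.0.16 and scaled by TMM, and siLTBP2 was tested against siNT with glmQLFit and glmQLFTest (two-sided, no covariate, Benjamini-Hochberg over all genes tested). This test was used in place of the likelihood ratio test of the study, which was run as an alternative, since it carries the uncertainty of the dispersion with 3 libraries in a group. Intervals are 95%. Depth, between 44663424 and 53576899 counts per library, limits precision for members of few counts.

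Full values were given for members with an adjusted p below 0.05 and for the member of highest mean CPM per kb in each role, and for pathway lists the genes called were named. Values per library of *ROBO3*, *EFNA1* and *EFNB3* were added after they were seen. The other tested members are given by mean level or log2 fold change, and those under the filter by their largest count. Level per kb is the mean CPM divided by the length of all exons in GENCODE 44, where all 41 identifiers were found, 39 with the same start as in the deposited table. The steps were tested on simulated data. Alternatives were the likelihood ratio test, DESeq2 1.42.0, scaling by RLE, by the upper quartile or by total counts, no filter, a filter of 1 CPM in 3 libraries, a test against a fold change of 1.5, the replicate number as a block and leaving out each library. Within a group the libraries differed by much more than counting noise (chi-square per degree of freedom from 24.6 to 48.1), so none was counted as a repeat of another.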

Additional observations from a re-analysis of the deposited data

How the results depend on the processing

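*LTBP2* kept its call under the alternatives run for it, which leave out the test against a fold change of 1.5, with a log2 fold change of -1.89 to -1.61 when a library was left out. The count of 2 members called became 1 in the test against a fold change of 1.5, where *ROBO2* was not called, and was 1 to 3 when a library was left out. The members called lower (1) became 2 with the replicate block and in the likelihood ratio test, both through *NTN5*, 0 in the test against a fold of 1.5, and 0 to 2 when a library was left out, with *EPHA4* added without siLTBP2 replicate 1. The 6 members at an adjusted p below 0.05 became 3 to 6 when a library was left out, with 3 without siNT replicate 1. The replicate block gave 12, adding *EFNA1*, *EFNB1*, *EPHB3*, *EPHB4*, *ROBO1* and *ROBO3*. Between siNT and siLTBP2, the correlation of deviations was 0.30, 0.08 and 0.43 for pairs sharing replicate number 1, 2 and 3. For pairs with different numbers it ran from -0.39 to 0.10. Replicates 1 and 3 of siNT thus correlated best with their own number. For siNT replicate 2 the values were close, 0.10 with siLTBP2 replicate 1 and 0.08 with siLTBP2 replicate 2. The main test did not assume pairing by number, and whether the libraries were paired was not tested. With no filter, *EFNA1* reached an adjusted p of 0.042, and without siLTBP2 replicate 3 of 0.021. *NTN5* was not tested under the filter of 1 CPM. The sign turned for 4 members that did not pass the test. With total counts *EPHA5* was -0.0045 and *EPHB2* -0.0077. Leaving out a library gave -0.13 to 0.34 for *EPHA5*, -0.11 to 0.11 for *EPHB2*, -0.12 to 0.0054 for *EPHB6* and -0.13 to 0.93 for *UNC5B*. The cause of these moves was not tested beyond the libraries named. Scaling moved the median of all genes to -0.04 at most, with total counts.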
